A study of Sus scrofa with 7 samples.

Results

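The genes described here encode the alpha chains of collagen, measured by RNA sequencing in heart muscle of pigs after myocardial infarction. They were chosen by gene symbol alone, as symbols made of COL, a number, A and a number, and 43 genes of 20653 in the deposited table had such a symbol. One transcript row was kept per gene, the one with the highest mean over 7 libraries, and 40 of the 43 collagen genes had a normalized count of at least 10 in at least 3 libraries. These 40 are the genes described below, among 15661 genes tested in all.

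Collagen chains wind in threes into a triple helix, and the chains fall into classes by the structure they build. Fibrillar chains (types I, II, III, V, XI, XXIV and XXVII) form or nucleate the fibrils that give scar and interstitial matrix their strength, while type IV chains form the sheet of the basement membrane around muscle cells and capillaries. Type VI chains form beaded filaments between cells and fibrils, types VIII and X are short chains that build networks, and FACIT chains decorate the surface of fibrils. Multiplexins (types XV and XVIII) lie at basement membranes and carry endostatin-like fragments, and transmembrane collagens (types XIII, XVII, XXIII and XXV) sit in the cell membrane. In the infarcted heart, fibroblasts are known to be the main source of types I and III, and endothelial and muscle cells contribute to type IV.

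The tissue was anteromidventricular myocardium of male farm pigs, sampled 14 weeks after myocardial infarction by way of the left circumflex (LCX) artery. Whether that site lay within the infarct or away from it is not settled by these data. The 4 libraries labelled S100a1 came from animals given the human S100A1 gene, which encodes a calcium sensor of cardiomyocytes, in an adeno-associated virus of serotype 5 (AAV5), and the 3 libraries labelled hrLuc from animals given the same type of virus carrying luciferase, a reporter enzyme. All 7 animals therefore carried both an infarct and a vector, and the comparison holds no uninfarcted or untreated heart. The titles number the libraries by pig. Neither the vector's promoter nor the animals' ages were stated in the labels.

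Summed over the row kept for each gene, the S100a1 libraries held 29002003 to 38409552 reads and the hrLuc libraries 28679324 to 32967156. The 9 cardiomyocyte markers examined were all measured, with a summed normalized count of 1899012 to 2115458 in S100a1 and 1809214 to 2066558 in hrLuc, so the defining markers of heart muscle were present. The pig S100A1 gene had 5933 ± 1064 normalized counts in S100a1 (SD, n = 4) and 7718 ± 1298 in hrLuc (SD, n = 3) (log2 fold change -0.39 ± 0.16; limma, adjusted p = 0.577). Whether reads of the human transgene could count towards it is not given, so it does not check the labels, and every direction below rests on those labels. The library numbers in the labels are 57, 9, 15 and 21 in S100a1 and 33, 39 and 45 in hrLuc. The labels name no batch, and none was fitted.

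No collagen gene passed the test. Of the 40, 0 had an adjusted p under 0.05 in limma fitted across all genes, where 0.0128% of all genes did (0.00639% lower and 0.00639% higher). On the reads recovered from the table edgeR also called 0 of the 40 and 0.0128% of all genes, and DESeq2 called 0 of the 40 and 0.568% of all genes. At an unadjusted p under 0.05 there were 7 lower and 1 higher collagen genes, against 8.26% of all genes, 4.57% lower and 3.69% higher. The groups did not overlap for 5 lower and 1 higher collagen genes, against 9.27% of all genes, 5.31% lower and 3.96% higher. Both counts of lower genes include COL10A1 and COL11A2, which entered through the hrLuc libraries alone and so had to differ. Among the other 38 collagen genes there were 5 lower and 1 higher at an unadjusted p under 0.05, and 3 lower and 1 higher without overlap. The fold changes pointed both ways. They were below 0 for 23 of 40 collagen genes with a median of -0.13, and below 0 for 56.5% of all genes with a median of -0.02. The 23 include COL10A1 and COL11A2. The genes above 0 include COL8A2, which passed the filter only through S100a1 libraries. Fold changes are log2 of S100a1 over hrLuc on log2(value + 0.5), with the standard error after them.

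**Figure D1:**
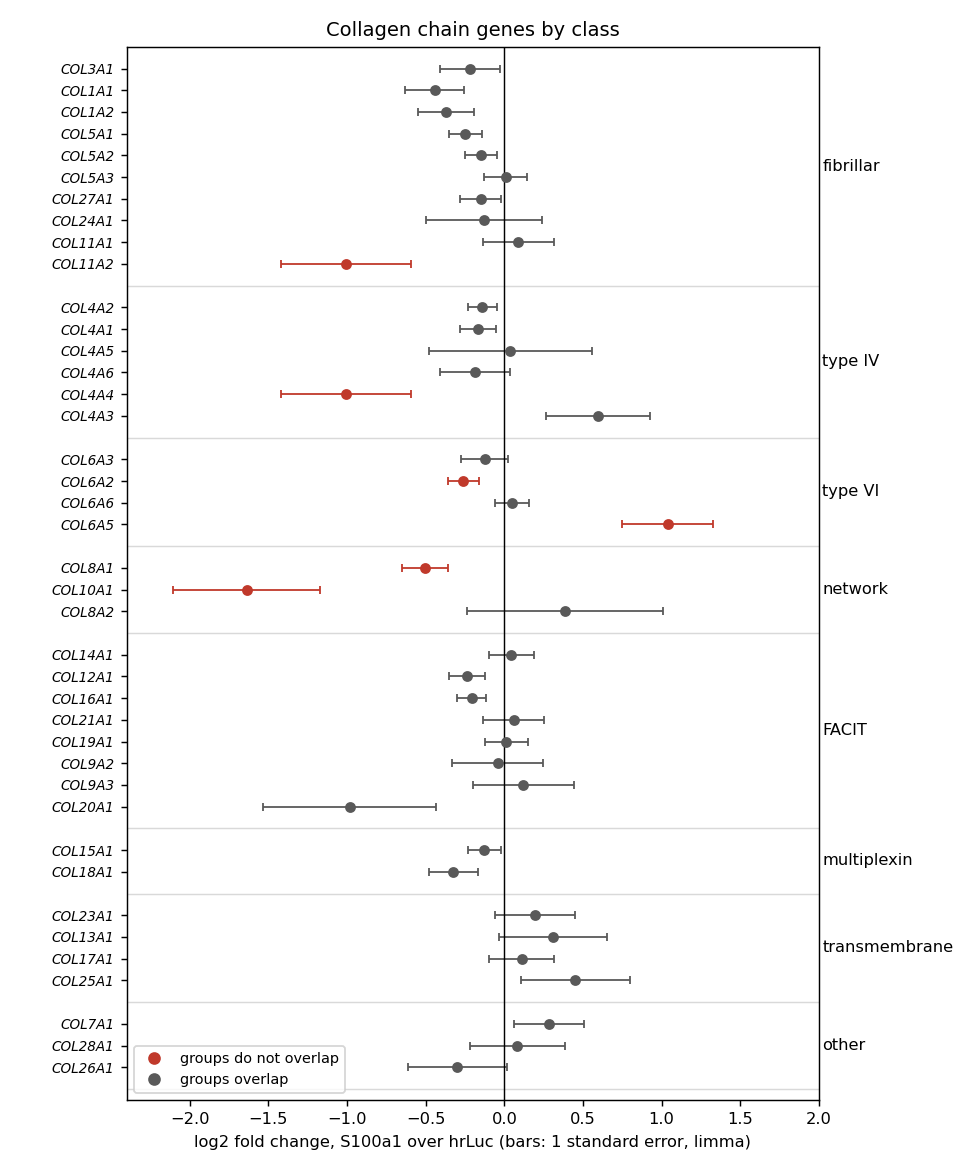
Log2 fold change of S100a1 over hrLuc (horizontal axis, bars are 1 standard error from limma) for 40 collagen chain genes, grouped by class and ordered within a class by mean count, with genes whose groups do not overlap in red. Most fibrillar, type IV and multiplexin chains lie left of 0, the 4 transmembrane chains lie right of it, and COL6A5 (1.04) and COL10A1 (-1.64) lie farthest out on the 2 sides.

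Lower values were more frequent among the genes with more reads, a difference that was not tested. Of 17 collagen genes with a mean of at least 1000 normalized counts 13 were below 0, with a median of -0.17, and 52.8% of all genes at that level were below 0. Of 23 with a lower mean 10 were below 0, with a median of 0.06, against 58.6% of all genes at that level. These 10 include COL10A1 and COL11A2, and the genes above 0 at that level include COL8A2. This division at 1000 was made after the values had been seen. Shares of reads were taken of the reads summed over the row kept for each gene. Together the 40 genes took 0.534%, 0.629%, 0.781% and 0.727% of the reads in S100a1 replicates 1 to 4, and 0.848%, 0.770% and 0.736% in hrLuc replicates 1 to 3. The share averaged 0.668% ± 0.109 in S100a1 (SD, n = 4) and 0.784% ± 0.058 in hrLuc (SD, n = 3). S100a1 replicate 3 exceeded hrLuc replicates 2 and 3, so the groups overlapped. In bulk tissue, fewer cells of a type and less RNA per cell cannot be told apart.

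A few hearts stood at the extremes of many chains. Among the 17 collagen genes of higher level, hrLuc replicate 1 was the highest library for 8 and the lowest for 0, and S100a1 replicate 1 was the lowest for 9. Leaving out S100a1 replicate 1 brought the median of the 40 fold changes to -0.07, and leaving out hrLuc replicate 2 brought it to -0.08. With replicate 1 of each group left out together, a choice made after the values had been seen, it was -0.04.

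**Figure D2:**
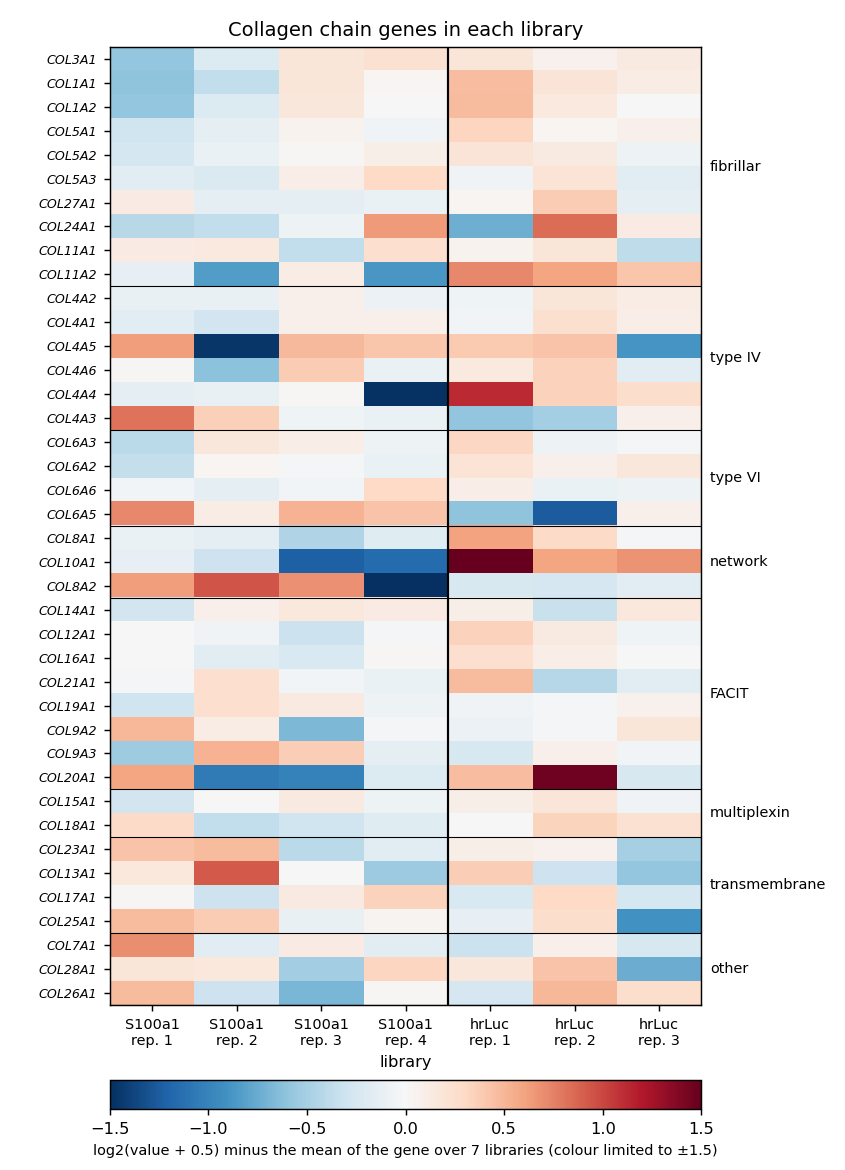
Each row is a collagen gene and each column a library, with S100a1 left of the black line and hrLuc right of it; colour is log2(value + 0.5) minus the mean of the gene over 7 libraries. The rows of COL3A1, COL1A1 and COL1A2 are blue in S100a1 replicates 1 and 2, and the COL4A5 row is dark blue in S100a1 replicate 2 and hrLuc replicate 3.

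The chains of the type I and type III fibrils were lower on average in S100a1, but not in every animal. COL1A1, the alpha-1 chain of type I collagen (Sscrofa11.1, chromosome 12, 26379087 to 26397180), had 17559, 20614, 30134 and 27094 normalized counts in S100a1 replicates 1 to 4. In hrLuc replicates 1 to 3 it had 36544, 30299 and 28806. S100a1 replicates 1 and 2 lay well below every hrLuc heart, whereas S100a1 replicate 3 was above hrLuc replicate 3. The log2 fold change was -0.44 ± 0.18 (adjusted p = 0.576, limma). Over the 35 splits of the 7 values, an exact permutation test (two-sided) gave p = 0.171. It was -0.31 without S100a1 replicate 1 and -0.34 without hrLuc replicate 1.

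COL1A2, which supplies the second chain of the type I trimer (chromosome 9, 74174484 to 74210407), had 12494, 16206, 21013 and 18641 normalized counts in S100a1, against 26043, 20739 and 18876 in hrLuc. The order of the libraries was much like that of COL1A1, but here S100a1 replicate 3 was above hrLuc replicate 2 as well as replicate 3. The COL1A2 log2 fold change was -0.37 ± 0.18 (adjusted p = 0.615, limma), against -0.23 without S100a1 replicate 1 and -0.24 without hrLuc replicate 1.

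COL3A1, the chain of the more extensible type III fibrils (chromosome 15, 93556914 to 93595678), had 40725, 52917, 69314 and 71165 normalized counts in S100a1, against 68975, 63619 and 66781 in hrLuc. S100a1 replicates 3 and 4 exceeded all 3 hrLuc hearts and replicates 1 and 2 fell short of them, so the spread within S100a1 (SD 14427) was larger than that within hrLuc (SD 2692). The log2 fold change was -0.22 ± 0.19 (adjusted p = 0.756, limma), and -0.06 without S100a1 replicate 1.

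**Figure D3:**
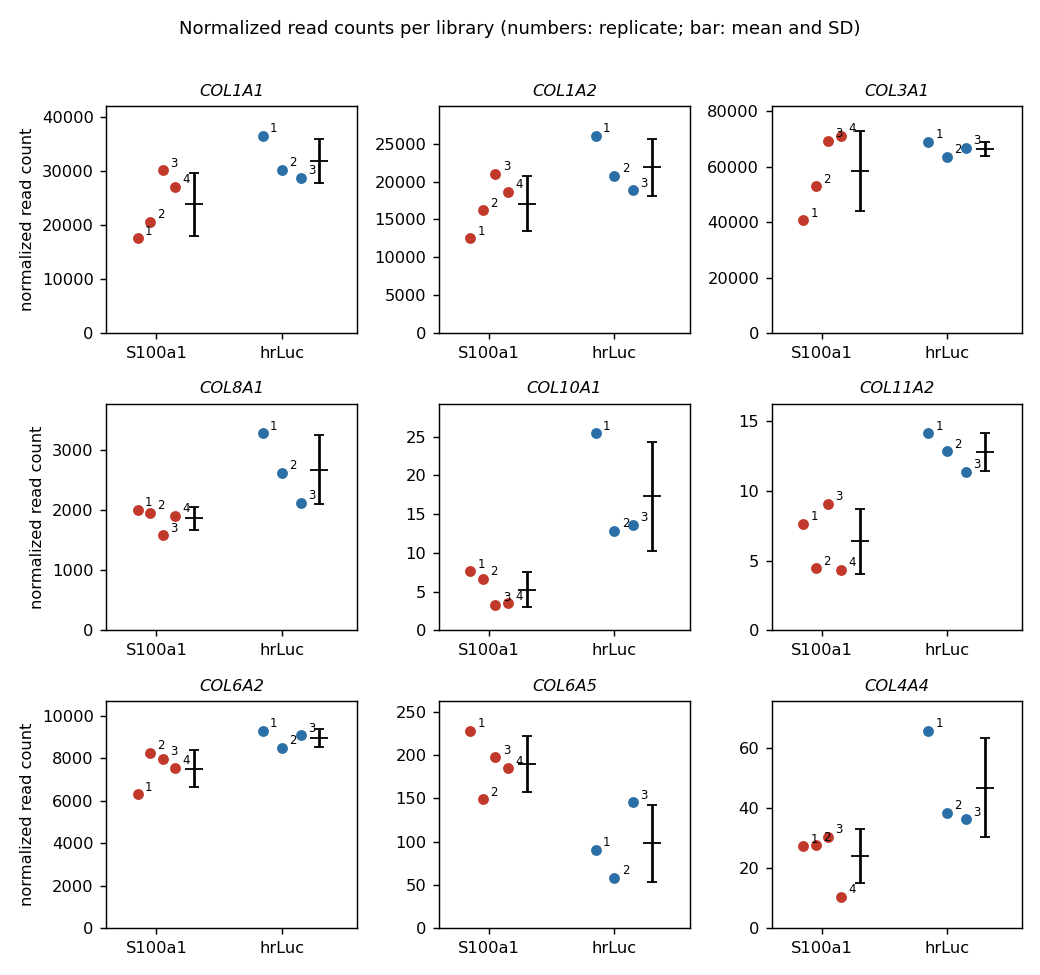
Normalized read counts (vertical axes, starting at 0) of 9 collagen genes in each library, S100a1 in red on the left and hrLuc in blue on the right; digits give the replicate and black bars the mean and SD. The groups overlap for COL1A1, COL1A2 and COL3A1, and do not overlap for COL8A1, COL10A1, COL11A2, COL6A2, COL6A5 and COL4A4.

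Of the chains that nucleate these fibrils, COL5A1 was at -0.25 ± 0.10 and COL5A2 at -0.15 ± 0.10, both with overlapping groups. With 1 library left out COL5A1 ran from -0.31 to -0.16 and COL5A2 from -0.23 to -0.08. COL5A2 is the neighbour of COL3A1 on chromosome 15, starting 16178 bases beyond its end. COL5A3 was at 0.01, COL27A1 at -0.15 and COL11A1 at 0.09, and with 1 library left out the signs of COL5A3 and COL11A1 turned. COL24A1 had a wide error (-0.13 ± 0.37) and ran from -0.53 to 0.25 with 1 library left out. It was highest in hrLuc replicate 2 (784 normalized counts) and S100a1 replicate 4 (680), and lay between 263 and 475 in the other 5 libraries. Over the fibrillar class 8 of 10 genes were below 0, with a median of -0.18. The 8 include COL11A2, which entered through the hrLuc libraries alone. A filter of 50 normalized counts left COL11A2 out, and the median of the other 9 genes was then -0.15. Over all 10 the median was -0.30 without S100a1 replicate 4 and -0.10 with replicate 1 of each group left out together.

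COL11A2, a minor fibrillar chain best known from cartilage (chromosome 7, 25204496 to 25234880), had 7.64, 4.45, 9.06 and 4.36 normalized counts in S100a1, against 14.1, 12.8 and 11.4 in hrLuc. Every S100a1 library lay below every hrLuc library (log2 fold change -1.01 ± 0.41, adjusted p = 0.574, limma; exact two-sided permutation p = 0.0571). These are a few reads per library. COL11A2 reached 10 in 0 of 4 S100a1 and 3 of 3 hrLuc libraries, so it entered the comparison only through the group where it is higher and had to differ. COL2A1, the main cartilage chain, did not pass the filter, with 5.24 to 9.83 normalized counts in S100a1 and 3.41 to 12.8 in hrLuc.

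The proportions of partner chains were compared within each library. The ratio of COL1A1 to COL1A2 was 1.41, 1.27, 1.43 and 1.45 in S100a1, against 1.40, 1.46 and 1.53 in hrLuc, with wide overlap. The ratio of COL1A1 to COL3A1 was 0.431, 0.390, 0.435 and 0.381 in S100a1, against 0.530, 0.476 and 0.431 in hrLuc, so type I stood lower relative to type III on average in S100a1 (0.409 ± 0.028 against 0.479 ± 0.049, SD, n = 4 and 3). S100a1 replicate 3 was just above hrLuc replicate 3. These ratios of counts are comparable between libraries but do not give numbers of molecules, because chain lengths differ, and they were not tested.

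**Figure D4:**
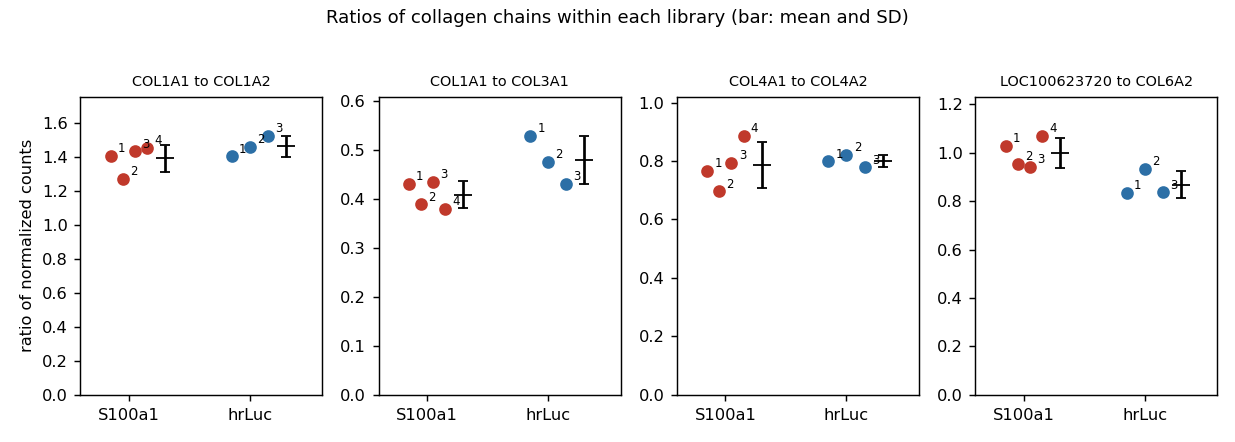
Ratio of the normalized counts of 2 chains within each library (vertical axes, starting at 0), S100a1 in red and hrLuc in blue, with digits for the replicate and black bars for mean and SD. COL1A1 to COL3A1 averages 0.409 in S100a1 and 0.479 in hrLuc, and the ratio of the alpha-1(VI) locus LOC100623720 to COL6A2 is the 1 of the 4 in which the groups do not overlap.

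The short network chain COL8A1 was lower in every S100a1 heart than in any hrLuc heart. COL8A1, a type VIII chain found around vessels and in remodelling matrix (chromosome 13, 159216138 to 159374718), had 2003, 1955, 1575 and 1897 normalized counts in S100a1, against 3268, 2619 and 2115 in hrLuc. Of the hrLuc hearts, replicate 3 lay nearest to the S100a1 range. The log2 fold change was -0.51 ± 0.14 (adjusted p = 0.525, limma), and the exact two-sided permutation p of 0.0286 is the smallest that 4 against 3 libraries can give. In the authors' deposited table COL8A1 had the smallest adjusted p of the 40 kept collagen rows, 0.0761, with a log2 fold change of -0.52. It was -0.35 without hrLuc replicate 1.

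COL10A1, the short chain of hypertrophic cartilage (chromosome 1, 81766829 to 81773818), had 7.64, 6.67, 3.29 and 3.49 normalized counts in S100a1, against 25.4, 12.8 and 13.6 in hrLuc. The groups did not overlap (log2 fold change -1.64 ± 0.47, adjusted p = 0.524, limma; exact two-sided permutation p = 0.0286). Like COL11A2 it reached 10 in 0 of 4 S100a1 and 3 of 3 hrLuc libraries, and so had to differ. It lies within the span of NT5DC1, whose counts differed in the same direction. NT5DC1 had 114, 165, 86.5 and 96.0 normalized counts in S100a1, against 382, 228 and 311 in hrLuc (log2 fold change -1.42 ± 0.25, adjusted p = 0.342, limma). How reads in the shared span were assigned is not given, so the counts of COL10A1 and NT5DC1 cannot be told apart here. The other type VIII chain, COL8A2, had 14.2, 17.8, 14.8 and 2.62 normalized counts in S100a1, against 7.53, 7.48 and 7.95 in hrLuc. It passed the filter only through 3 S100a1 libraries.

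The type VI chains lay on both sides of 0. COL6A2, part of the usual trimer, had 6303, 8257, 7972 and 7554 normalized counts in S100a1, against 9302, 8506 and 9095 in hrLuc. The groups did not overlap, although S100a1 replicate 2 and hrLuc replicate 2 lay close together (log2 fold change -0.26 ± 0.10, adjusted p = 0.557, limma; exact two-sided permutation p = 0.0571). The locus LOC100623720, described in the file as the collagen alpha-1(VI) chain and so outside the symbol rule, had 6488, 7885, 7514 and 8093 in S100a1, against 7772, 7945 and 7614 in hrLuc (-0.06 ± 0.08, adjusted p = 0.860, limma). The ratio of LOC100623720 to COL6A2 was 1.03, 0.955, 0.943 and 1.07 in S100a1, against 0.836, 0.934 and 0.837 in hrLuc, so every S100a1 library was above every hrLuc library. COL6A2 is on sequence that the RefSeq table does not place on a chromosome.

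COL6A3, the longest chain of the trimer (chromosome 15, 137011549 to 137103687), had 10274, 15330, 14610 and 12889 normalized counts in S100a1, against 16848, 12917 and 13457 in hrLuc. The groups overlapped broadly (-0.12 ± 0.15), and the fold change was -0.01 without S100a1 replicate 1 or without hrLuc replicate 1. COL6A6, an alternative to COL6A3 in the trimer, had 2836, 2663, 2838 and 3599 normalized counts in S100a1, against 3122, 2724 and 2762 in hrLuc (0.05 ± 0.11). S100a1 replicate 4 was its highest library and the rest were mixed.

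COL6A5 was the collagen gene with the smallest p and the 1 of 40 whose S100a1 values all lay above the hrLuc values, with 3.96% of all genes so placed. It encodes another alternative to COL6A3 (chromosome 13, 2029543 to 2174404) and lies 43575 bases from COL6A6. It had 228, 149, 198 and 185 normalized counts in S100a1, against 90.3, 57.7 and 145 in hrLuc. S100a1 replicate 2 and hrLuc replicate 3 nearly met, and hrLuc replicate 2 was lowest. The log2 fold change was 1.04 ± 0.29 (adjusted p = 0.514, limma; exact two-sided permutation p = 0.0286, the smallest possible). In the authors' deposited table COL6A5 had a log2 fold change of 0.96 with an adjusted p of 0.0976. It was 0.71 without hrLuc replicate 2. The lower genes without overlap were COL4A4, COL6A2 and COL8A1, beside COL10A1 and COL11A2, whose place the filter decided.

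The main chains of the vascular and muscle basement membrane were slightly lower on average in S100a1. COL4A1 and COL4A2, whose products assemble together, adjoin on chromosome 11 (76858332 to 76997409 and 76996885 to 77161617). COL4A1 had 18032, 16467, 21288 and 21244 normalized counts in S100a1, against 19549, 23713 and 21509 in hrLuc. COL4A2 had 23531, 23639, 26853 and 23949 in S100a1, against 24461, 28915 and 27630 in hrLuc. Both genes had overlapping groups, with S100a1 averaging 89.2% of hrLuc for COL4A1 (log2 fold change -0.17 ± 0.12) and 90.7% for COL4A2 (-0.14 ± 0.09). COL4A1 was at -0.10 without S100a1 replicate 2 or without hrLuc replicate 2, and COL4A2 at -0.09 without hrLuc replicate 2. Their ratio was 0.766, 0.697, 0.793 and 0.887 in S100a1, against 0.799, 0.820 and 0.778 in hrLuc. The 9 endothelial markers had a summed normalized count of 28328 to 31301 in S100a1 and 28780 to 33994 in hrLuc, with 7 of 9 below 0, a median of -0.07. Of all genes 56.5% were below 0, and 3.96% were higher without overlap. TEK, an angiopoietin receptor, was the 1 endothelial marker without overlap, at 0.29 ± 0.10 (adjusted p = 0.548, limma), and EGFL7 was also above 0 (0.11), while PECAM1 (-0.04), CDH5 (-0.17) and VWF (-0.07) were among those below. Their part in the type IV values was not tested.

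COL4A5 differed widely among the hearts of each group. This X-linked chain (88958837 to 89183306), 1 of the chains mutated in Alport syndrome, a kidney disease, had 4796, 1132, 4381 and 4144 normalized counts in S100a1, against 4091, 4182 and 1690 in hrLuc. S100a1 replicate 2 and hrLuc replicate 3 stood far below the other 5 libraries, which lay between 4091 and 4796. The log2 fold change was 0.04 ± 0.52 (adjusted p = 0.986, limma), and it ran from -0.39 without hrLuc replicate 3 to 0.53 without S100a1 replicate 2. COL4A6, its partner on the X chromosome (88634925 to 88750938), was also lowest in these 2 hearts, with 341, 221, 441 and 314 in S100a1, against 374, 430 and 300 in hrLuc. The nearby autophagy gene ATG4A was highest in the same 2, with 948, 1132, 828 and 725 in S100a1, against 711, 665 and 1729 in hrLuc.

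**Figure D5:**
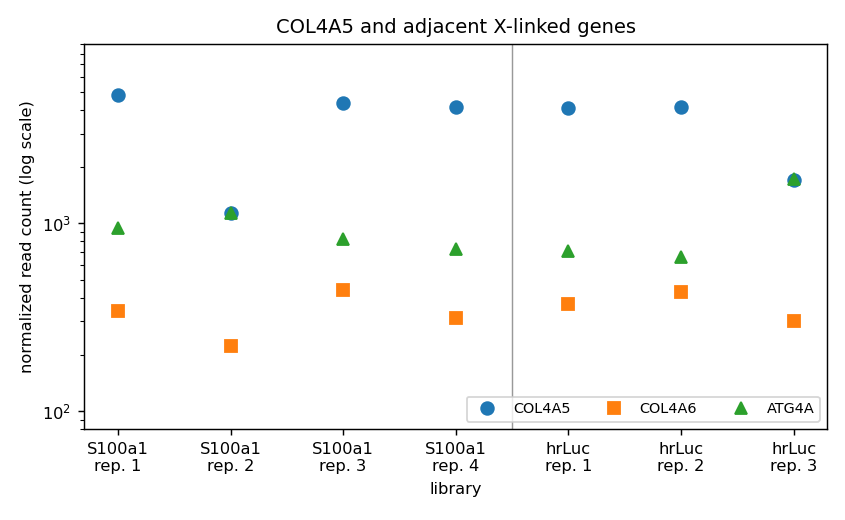
Normalized read counts (log scale) of COL4A5, COL4A6 and ATG4A in each library, S100a1 left of the grey line and hrLuc right of it. COL4A5 and COL4A6 are lowest, and ATG4A highest, in S100a1 replicate 2 and hrLuc replicate 3.

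The other pair of the class, COL4A3 and COL4A4, overlap at their ends on chromosome 15 (128611640 to 128763331 and 128472228 to 128612302) and had few reads. COL4A4 had 27.3, 27.8, 30.5 and 10.5 normalized counts in S100a1, against 65.9, 38.5 and 36.4 in hrLuc, without overlap (log2 fold change -1.01 ± 0.41, adjusted p = 0.574, limma; exact two-sided permutation p = 0.0571). COL4A3 lay the other way, at 0.60 ± 0.33, with 38.2, 27.8, 20.6 and 20.1 in S100a1, against 14.1, 15.0 and 22.7 in hrLuc. COL4A4 was at -0.66 without S100a1 replicate 4. It also overlaps RHBDD1, which was at -0.02. The median of the 6 type IV chains was -0.15, and leaving out 1 heart gave -0.05 (S100a1 replicate 2), -0.08 (hrLuc replicate 2) or -0.25 (hrLuc replicate 3).

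The FACIT class, which attaches to fibril surfaces, was divided evenly, with 4 of 8 below 0 and a median of -0.02. COL14A1 had 5532, 7064, 7509 and 7311 normalized counts in S100a1, against 7155, 5333 and 7518 in hrLuc (0.05 ± 0.14), and its sign turned without hrLuc replicate 2 (-0.11) or S100a1 replicate 3. COL12A1, which is associated with tissue under tension, had 1630, 1565, 1304 and 1592 in S100a1, against 2067, 1784 and 1558 in hrLuc (-0.24 ± 0.11, adjusted p = 0.614, limma), with a fold change of -0.14 without hrLuc replicate 1. COL16A1 had 823, 735, 701 and 827 in S100a1, against 972, 876 and 824 in hrLuc (-0.21 ± 0.09, adjusted p = 0.608, limma). In both genes hrLuc replicate 1 was highest, and 1 or more S100a1 libraries reached the lowest hrLuc library. COL19A1 was at 0.01, COL21A1 at 0.06, COL9A2 at -0.04 and COL9A3 at 0.12, and each of these 4 signs turned when 1 library was left out. COL20A1, with under 35 normalized counts in every library, was at -0.98 ± 0.55 and ran from -1.38 to -0.53 with 1 library left out.

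Both multiplexins averaged lower in S100a1. COL15A1 had 9032, 10947, 12026 and 10377 normalized counts in S100a1, against 11596, 12459 and 10597 in hrLuc (-0.13 ± 0.10), and its fold change was -0.05 without S100a1 replicate 1 and -0.07 without hrLuc replicate 2. COL18A1, the precursor of endostatin, had 6199, 3931, 4108 and 4475 in S100a1, against 5026, 6386 and 5945 in hrLuc (-0.32 ± 0.16, adjusted p = 0.615, limma). S100a1 replicate 1 was set apart for COL18A1, above 2 of the 3 hrLuc hearts while the other S100a1 hearts lay below all 3, and the fold change was -0.47 without it. The same heart was lowest for COL15A1.

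All 4 transmembrane chains were above 0, with overlapping groups and wide errors. COL13A1 was at 0.31 ± 0.34, COL23A1 at 0.19 ± 0.25, COL17A1 at 0.11 ± 0.21 and COL25A1 at 0.45 ± 0.35. Among the remaining chains COL7A1, of anchoring fibrils, was at 0.29 ± 0.22, with S100a1 replicate 1 highest (244 normalized counts) and the other 6 libraries between 120.5 and 163.9. COL28A1 was at 0.08 ± 0.30 and COL26A1 at -0.30 ± 0.32. The genes just inside the filter were COL8A2, COL10A1 and COL11A2, at 10 or more in 3 libraries. Just outside were COL9A1, at that level in 2 libraries, and COL2A1 and COL22A1, in 1 each.

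Genes that make, bind and degrade collagen were examined beside the chains. Of 67 measured genes in 5 lists 0 passed the threshold in limma, 51 entries were below 0, and at an unadjusted p under 0.05 there were 12 lower and 0 higher. Of all genes 56.5% were below 0, and at that p 4.57% were lower and 3.69% higher. Among 21 genes of chain folding and export 17 were below 0 (median -0.10), including SERPINH1, the collagen chaperone, at -0.44 ± 0.14 and FKBP10, a prolyl isomerase, at -0.38 ± 0.12. SERPINH1 had 3210, 4114, 4908 and 4383 normalized counts in S100a1, against 6175, 5683 and 4974 in hrLuc, without overlap. Among 13 genes of extracellular maturation 10 were below 0 (median -0.17), including LOXL1, a crosslinking oxidase, at -0.49 ± 0.13 and ADAMTS3, a procollagen N-proteinase, at -1.23 ± 0.35. Adjusted p values in limma were 0.535 for SERPINH1 and FKBP10, 0.514 for LOXL1 and 0.524 for ADAMTS3.

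Of 12 measured collagen receptors 8 were below 0 (median -0.12), with the collagen-binding integrin chains ITGA1 at -0.23 ± 0.08 and ITGA10 at -0.37 ± 0.15. ITGA1 had 5265, 5393, 5547 and 5783 normalized counts in S100a1, against 7064, 6401 and 5893 in hrLuc, without overlap (adjusted p = 0.541, limma). Of 9 genes of turnover 6 were below 0 (median -0.04), with the protease inhibitor TIMP1 at -0.38 ± 0.14 and TIMP4 at 0.25 ± 0.12. The collagenases MMP1, MMP8 and MMP13 and the gelatinase MMP9 were not among the genes tested. Of 12 fibril partners 10 were below 0 (median -0.18), with the small proteoglycans FMOD at -0.45 ± 0.14 and LUM at -0.31 ± 0.12.

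Markers of fibroblasts and mural cells were mostly below 0, and those of muscle, nerve sheath and fat cells mostly above. No marker in these lists had an adjusted p under 0.05 in limma. Of all genes 56.5% were below 0, and without overlap 5.31% were lower and 3.96% higher. Of 9 measured fibroblast markers 8 were below 0 (median -0.11), and their summed normalized count was 18965 to 24844 in S100a1 and 23059 to 27742 in hrLuc. PI16 (-0.49 ± 0.19) and LUM (-0.31 ± 0.12) were lower without overlap, and PDGFRL (0.19) was above 0. Of 8 markers of activated fibroblasts 7 were below 0 (median -0.28), with sums of 10298 to 10890 in S100a1 and 11940 to 12897 in hrLuc. THBS4 (-0.28 ± 0.11) was lower without overlap, and POSTN (0.08) was above 0. The 10 markers of smooth muscle and pericytes had 8 below 0 (median -0.24), with sums of 30311 to 34709 in S100a1 and 32072 to 39156 in hrLuc. Of the 9 cardiomyocyte markers 6 were above 0 (median 0.08), with the calcium release channel RYR2 at 0.42 ± 0.16 and without overlap. ACTC1 (-0.27), MYL3 (-0.13) and MYL2 (-0.02) were below 0. All 6 Schwann cell markers were above 0 (median 0.12), with sums of 1222 to 1638 in S100a1 and 958 to 1625 in hrLuc. Of 4 measured adipocyte markers 3 were above 0 (median 0.16), with sums of 1217 to 2383 in S100a1 and 1141 to 1727 in hrLuc, and FABP4, a fatty acid carrier, was at 0.30 ± 0.09 without overlap. Of 5 immune cell markers 3 were below 0 (median -0.19), with sums of 4172 to 6495 in S100a1 and 4728 to 6532 in hrLuc. S100a1 replicate 1, lowest for 9 of the 17 higher-level collagen genes, was also the lowest library for the fibroblast sum. Of 6 cartilage markers 4 were measured, with sums of 852 to 1235 in S100a1 and 1087 to 1125 in hrLuc. CNMD (-0.11 ± 0.09) was lower without overlap, and CHAD (0.11) was above 0. LUM, DCN, POSTN and FAP are also in the lists of related genes above, so those lists and the fibroblast lists are not separate observations. The part of any of these cells in the collagen values was not tested.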

How the data were processed

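RNA from 7 pig hearts was sequenced from ribosome-depleted libraries, per the labels' protocols. Per the submitters' processing notes the tools included DESeq2 1.33.1, FastQC 0.11.8 and R 4.1.2, and the build was Sscrofa11.1. Aligner, counting program and strand setting: not given in the sources used here. As deposited, each library has a signal per transcript, its normalized read count. Dividing by the worth of 1 read gave a whole number, to within 0.01 read, for 100% of values, so whole reads were recovered. 1 read was worth 0.824 to 1.14 normalized counts. The deposited log2 column, the deposited ratio column and the deposited p-value column hold the authors' own comparison, adjusted by a method not named.

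The members and lists were chosen with earlier results of these data known. Genes with 10 or more normalized counts in at least 3 libraries were tested with limma 3.58.1 (R 4.3.3) with a mean-variance trend on log2(value + 0.5), two-sided, adjusted by Benjamini-Hochberg over 15661 genes. Fold changes of low genes are understated by the pseudocount. Values of every library are given for the 3 fibrillar, type IV, type VI and FACIT genes of highest mean, for network, multiplexin and transmembrane genes among the 20 of highest mean, for genes without overlap and for the 5 of smallest p. Other collagen genes given with library values were added after their values were seen. Counts grow with transcript length, so the levels of different genes are not comparable per molecule, and the division at a mean of 1000 is one of read number. Related lists name at most 2 genes of smallest p each. Of 40 genes, 20 had several rows, and 12 had rows that differ. All rows matched RefSeq, which gave positions. The smallest exact two-sided p is 0.0286. On simulated counts with 200 genes changed, drawn 3 times for about 15551 genes, limma recovered 77.0% of 2-fold and 93.2% of 4-fold changes, with 7.54% of its calls false. No rate is given for changes under 2-fold, the size of most collagen fold changes here. In the deposited data COL6A5 (log2 fold change 1.04) and COL4A4 (-1.01) had adjusted p of 0.514 and 0.574 in limma. These 2 genes are too few to check the simulated rates. The simulated counts were drawn independently for each gene and library, which the counts of these hearts need not follow. The simulated rates may not hold for these hearts, and the lack of calls does not show that collagen genes were unchanged. edgeR 4.0.16, DESeq2 1.42.0, other normalizations, filters, pseudocounts and transcript rows, the replicate number as a block and leaving out each library were tried as alternatives. 0 columns of per-sample values were left unused.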

Additional observations from a re-analysis of the deposited data

Results flagged for a closer look

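Of 24 S100a1 groups of 4 values examined, 2 had a library far from the other 3, and chance alone flags about 1 in 20. COL4A2 was 26853 normalized counts in S100a1 replicate 3, against 23531 to 23949 in the other S100a1 libraries. That value was within the hrLuc range of 24461 to 28915. COL4A4 was 10.5 normalized counts in S100a1 replicate 4, against 27.3 to 30.5 in the other S100a1 libraries. COL4A5, low in S100a1 replicate 2, did not meet the same criterion. Groups of 3 were not examined.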

How the results depend on the processing

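Under every alternative setting run the count of collagen genes past the threshold was 0, as in the fit reported. The smallest adjusted p of any collagen gene given with library values was 0.0955, by DESeq2 for COL6A5. With each library left out the median log2 fold change of the 40 genes ran from -0.18 to -0.07, that of the fibrillar genes from -0.30 to -0.13 and that of type IV from -0.25 to -0.05. With replicate 1 of each group left out, chosen after seeing the data, the median of all 40 was -0.040 and COL6A3 was at 0.11. For the 19 genes named by rule, 329 of 339 values under alternatives kept their direction and 10 turned, in 4 genes. Of all 40 genes 11 changed sign when 1 library was left out, among them COL24A1, COL5A3, COL11A1, COL21A1 and COL28A1. With a library left out COL4A5 ran from -0.39 to 0.53, COL14A1 from -0.11 to 0.14 and COL6A6 from -0.044 to 0.11. The replicate numbers were shared by the groups but nothing in the labels says that they pair animals, and same-numbered libraries deviated from their group means with correlations of -0.02, -0.07 and 0.08. For unlike numbers they ran from -0.16 (S100a1 replicate 4 with hrLuc replicate 3) to 0.19 (S100a1 replicate 4 with hrLuc replicate 2). A chi-square of reads between this last pair was 19.0 per degree of freedom, against 38.9 to 43.8 within their own groups. Other pairs were nearly as close, within a group (S100a1 replicates 2 and 3, 19.8) and across groups (replicate 3 of each, 21.3). The largest value was 60.0, between replicate 1 of each group. The cause of these likenesses was not tested. With the replicate number as a block 0 collagen genes passed, COL4A5 was at -0.094 and COL6A6 at -0.044, and S100a1 replicate 4 then carries no weight in the comparison. Both fold changes were the same, -0.094 and -0.044, with S100a1 replicate 4 simply left out. Why signs turned with single libraries was not tested. With 4 and 3 hearts, genes with few reads (COL11A2, COL10A1, COL4A4) rest on 3.29 to 65.9 normalized counts a library.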

Other observations

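The file holds 35 further loci described as collagen chains but named with LOC numbers, of which 24 passed the filter on low values. Their descriptions come from the file and their reads may in part be shared with other genes. The locus LOC102158401, described as collagen alpha-1(I) chain-like, had 126200, 98825, 85953 and 384232 normalized counts in S100a1, against 98087, 404858 and 132612 in hrLuc. Its 2 high libraries, S100a1 replicate 4 and hrLuc replicate 2, were also the 2 highest for COL24A1, whereas COL1A1 was not highest in either. LOC110255782, described as collagen alpha-1(I) chain, had 11846, 10033, 9994 and 10462 in S100a1, against 8251, 11015 and 10091 in hrLuc (log2 fold change 0.12 ± 0.11), and did not share the order of libraries seen for COL1A1.

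On the X chromosome, PSMD10 and NXT2, which lie on either side of the COL4A6 and COL4A5 region, did not show the split of COL4A5. PSMD10 had 183, 188, 182 and 209 normalized counts in S100a1, against 218, 190 and 212 in hrLuc. NXT2 had 146, 205, 192 and 152 in S100a1, against 270, 222 and 183 in hrLuc.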
